A study of Homo sapiens with 24 samples.

Results

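The vector control line of ARPE-19 (VC) was compared with wild type ARPE-19 cells (WT) in hypoxia, across all genes. The members were chosen by their labels alone: 3 hypoxic VC libraries and 3 hypoxic WT libraries, 6 of the 24 libraries in the series. Of 60623 genes in the count table, 24873 had at least 10 counts in total over the 24 libraries and were tested. ARPE-19 is an established, spontaneously arising human cell line with features of the retinal pigment epithelium. VC cells are labelled as ARPE-19 cells and, by the methods, stably carry the control construct, delivered by a retrovirus, while WT cells carry no construct. Neither the labels nor the methods say whether VC is a clone or a pool, and no WT culture went through the transduction, so an effect of the construct and a difference that VC cells already had cannot be told apart. All 6 samples were kept for 4 h in a chamber with 0.5% O2 and 5% CO2. The other 18 libraries hold the same lines in normoxia and, at both oxygen levels, an EMP2 overexpressing line (OE, also made with a retrovirus) and an EMP2 knock down line (KD). The labels number the OE cells of replicate 3 differently from those of replicates 1 and 2, so the OE group may hold more than 1 line.

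Total RNA was depleted of ribosomal RNA and sequenced as single reads of 50 bases. The 6 libraries held 14371623 to 18032112 counts. Levels are given as CPM, the counts of a gene scaled to a common library total, after scaling of the library sizes by the trimmed mean of M values (TMM), as mean ± SD over n = 3 libraries. Changes are VC relative to WT and were tested with the quasi-likelihood test of edgeR in a single fit of all 8 groups. The SE given with a log2 fold change is its size divided by the square root of F, the statistic of that test. This SE is not a direct estimate of the error, and it can be too small for genes with few counts in a group. A gene was called higher or lower at a Benjamini-Hochberg adjusted p under 0.01 over all genes tested. For a gene with no count in one group, the fold is a lower bound against a floor of 3 counts over that group (0.0627 CPM in VC, 0.0662 CPM in WT), and for a gene with 1 to 3 counts it is the ratio with its exact 95% counting interval. These bounds and intervals cover counting error only. The labels do not say whether replicates were separate cultures, so p-values measure only how these libraries vary, and that variation may be technical.

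EMP2, epithelial membrane protein 2, is a small protein with 4 membrane-spanning segments of the family that also holds EMP1, EMP3 and PMP22. The retinal pigment epithelium is a pigmented single layer of cells behind the photoreceptors that recycles the chromophore of visual pigment, takes up shed photoreceptor membrane and secretes growth factors such as VEGFA. When oxygen falls, the prolyl hydroxylases EGLN1, EGLN2 and EGLN3 mark less HIF alpha protein for capture by VHL, and HIF alpha pairs with ARNT to activate genes of glucose uptake, glycolysis and vessel growth. A vector control line is meant to carry every step of making a modified line except the transgene.

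The VC libraries stood apart from every other library of the series, in both oxygen levels. On the first principal component of log2 CPM, which held 46.2% of the variance, the 3 hypoxic VC libraries lay at 90.4 to 91.3 and the 3 hypoxic WT libraries at -39.3 to -38.4. The OE hypoxic libraries lay at -12.4 to -7.92 and the KD hypoxic libraries at -49.7 to -48.4 on the same axis. Across genes, log2 CPM of any VC library correlated with that of any WT library in hypoxia at r = 0.944 to 0.946, below the lowest r of 0.997 between replicates of VC or of WT. Genes are not independent replicates, so these r values are descriptions. A total of 80 genes reached at least 10 CPM in all 6 VC libraries of both oxygen levels and stayed under 1 CPM in all 18 other libraries. The reverse pattern was found for 1 gene, TRO, which encodes trophinin, an adhesion protein. Since every VC library shares this separation, no comparison of VC with WT can be made without it. Nothing measured here identifies the VC cells beyond their transcripts, so the construct, the choice of a clone and a different origin of the cells cannot be told apart as sources of any VC and WT difference.

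**Figure D1:**
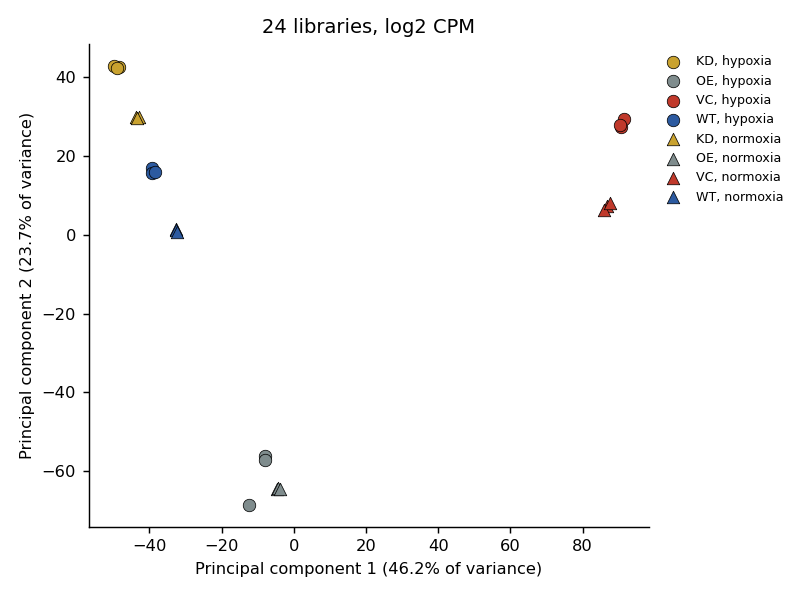
Each point is 1 of the 24 libraries, placed by the first (46.2% of variance) and second (23.7% of variance) principal components of log2 CPM, with colour for the line and shape for the oxygen level. The VC libraries of both oxygen levels sit together at the right, apart from the WT, OE and KD libraries.

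EMP2 itself was close in both lines. Its level was 36.6, 33.4 and 32.7 CPM in the 3 VC libraries and 42.1, 43.8 and 37.8 CPM in the 3 WT libraries. The groups did not overlap, but the log2 fold change of -0.27 (SE 0.09) was not called (edgeR adjusted p = 0.0133). For scale, EMP2 was at 558 CPM in OE and 7.73 CPM in KD in hypoxia. Within the EMP2 family, EMP1 rose in VC (168 ± 2.68 against 106 ± 2.79 CPM, log2 fold change 0.66, edgeR adjusted p = 1.15e-10) and PMP22, a myelin protein of peripheral nerve, fell (79.6 ± 3.44 against 148 ± 3.59 CPM, log2 fold change -0.89, adjusted p = 6.02e-12). EMP3 was at 145 ± 8.68 CPM in VC and 135 ± 1.01 CPM in WT and was not called (adjusted p = 0.374). Among the 9 genes of the EMP2 family and of caveolae, the membrane pits whose coat is built by caveolins and cavins, 5 were higher and 1 was lower. CAVIN1, a structural coat protein of caveolae, was at 986 ± 41.0 CPM in VC and 391 ± 16 CPM in WT (log2 fold change 1.33). CAVIN3 had 13.1, 11.6 and 9.77 CPM in VC and no count in any WT library, at least 175-fold higher.

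VC and WT differed in a large part of the transcriptome. In hypoxia 5447 of 24873 genes (21.9%) were higher in VC and 4473 (18%) were lower, so that 39.9% of all genes tested were called. Changes of at least 2-fold were called for 2979 genes (12%) in the higher and 2225 genes (8.95%) in the lower direction. The 3 VC libraries lay entirely above the 3 WT libraries for 7353 genes (29.6%) and entirely below for 6548 (26.3%). Of the 9578 genes with a mean of at least 10 CPM over the 6 libraries, 65.6% were called, 35.3% higher and 30.3% lower. These shares are the background for every list below, since most lists hold well expressed genes. In the same fit and against the same WT libraries, 3383 genes (13.6%) were higher and 3243 (13%) lower in OE, and 2215 (8.91%) were higher and 2316 (9.31%) lower in KD.

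Very large differences lay mostly on the VC side. At least 10 CPM in VC with under 0.1 CPM in WT was seen for 77 genes, and the reverse for 4 genes. The same counts were 11 and 4 for OE against WT and 0 and 3 for KD against WT. Of the 9451 genes with at least 10 CPM in VC, 232 (2.45%) were over WT by at least 16-fold, and of the 9384 genes with at least 10 CPM in WT, 43 (0.458%) were over VC by that much.

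The 15 largest increases were of genes that WT cells barely transcribed. IGFBP4, a secreted binding protein for insulin-like growth factors, was at 1027, 1059 and 902 CPM in the VC libraries and at 0.126, 0 and 0 CPM in the WT libraries. The WT libraries held 2 counts in all, a ratio of 22709.5 (95% counting interval 6286 to 187525, edgeR adjusted p = 5.00e-24). DNAJA4, a co-chaperone of the heat shock protein 40 family, was at 345, 358 and 362 CPM in VC and at 0.0632, 0 and 0 CPM in WT, a ratio of 16069 (2884 to 634712) on 1 WT count. COL6A2, a chain of the microfibrillar collagen VI, was at 699.9, 711 and 734 CPM in VC and at 0, 0 and 0.362 CPM in WT (log2 fold change 12.56 on 5 WT counts, edgeR adjusted p = 1.29e-17). LCN2, a secreted lipocalin that binds bacterial iron carriers, was at 325, 358 and 401 CPM in VC and at 0.0632, 0.127 and 0 CPM in WT, a ratio of 5430.1 (1858 to 26334). These 4 genes were chosen for large changes and groups without overlap, so their separation is not a separate result.

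Most of the other large increases were of genes with no count at all in WT. COL9A3, a chain of cartilage collagen IX, was at least 1442-fold higher in VC (95.3 ± 6.32 CPM). PRAME, a cancer-testis antigen, was at least 1277-fold higher (84.4 ± 2.22 CPM), and no count was seen in the OE and KD hypoxic libraries either. GJB2, the gap junction protein connexin 26, was at least 901-fold higher (59.3 ± 3.91 CPM). These 3 genes varied little between the VC libraries. CHCHD10, a mitochondrial protein, varied more, with 55.2, 53.7 and 19.4 CPM in VC against no count in WT (at least 666-fold), and it was also present in OE at a mean of 12.1 CPM. Its edgeR adjusted p was 1.11e-07, and 0.0343 with only the 6 libraries fitted. NTN1, the axon guidance cue netrin-1, was at least 456-fold higher (30.1 ± 1.43 CPM). SHANK1, CTHRC1, FBXL16, HTRA3, PRSS21 and SLFN11 completed this group, each with a VC mean of 28.6 to 37.4 CPM and no WT count. EEF1A2, a translation elongation factor of muscle and neurons that was chosen after its values were seen, was at 882 CPM in VC and 0.523 CPM in WT.

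The largest decreases were of genes barely detected in VC. KRT81, a keratin of hair that shares much of its sequence with KRT86, was at 1.24, 1.70 and 3.12 CPM in VC and at 1315, 1392 and 1360.1 CPM in WT (log2 fold change -9.42, SE 0.18, edgeR adjusted p = 7.74e-24). It was also low in OE (1.33 CPM) and intermediate in KD (288 CPM). CMKLR1, the receptor for chemerin, was at 0, 0 and 0.0708 CPM in VC and at 20.8, 21.1 and 19.7 CPM in WT, which was 984 times the VC level (176 to 38919), with 0.0498 CPM in OE and 78.2 CPM in KD. ADAMTS2, the protease that trims fibrillar procollagens, was at 0.0622, 0 and 0.142 CPM in VC and at 47.5, 45.0 and 43.4 CPM in WT, 723 times the VC level (247 to 3511). The groups do not overlap in these 3 genes because only genes without overlap were chosen.

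CEMIP, which takes part in the breakdown of hyaluronan, fell from 84.9 ± 9.74 CPM in WT to 0.640 ± 0.268 CPM in VC (log2 fold change -7.02). COLEC12, a scavenger receptor, fell from 75.4 ± 2.66 to 1.38 ± 0.363 CPM (log2 fold change -5.78), and its OE and KD means were 1.99 and 76.0 CPM. TRO, the gene under 1 CPM in VC at both oxygen levels, fell from 21.2 ± 0.706 to 0.431 ± 0.128 CPM (log2 fold change -5.57). COL10A1, a short-chain collagen of growth plate cartilage, was at 18.3 ± 1.58 CPM in WT, 874 times its VC level (156 to 34543) on 1 VC count. LDB2, GSG1L, PODN, VSTM4, PRSS33, ASTN1, ADAMTSL1 and CYP27C1 made up the rest of the 15, with WT means of 10.6 to 42.2 CPM and VC means under 1 CPM.

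**Figure D2:**
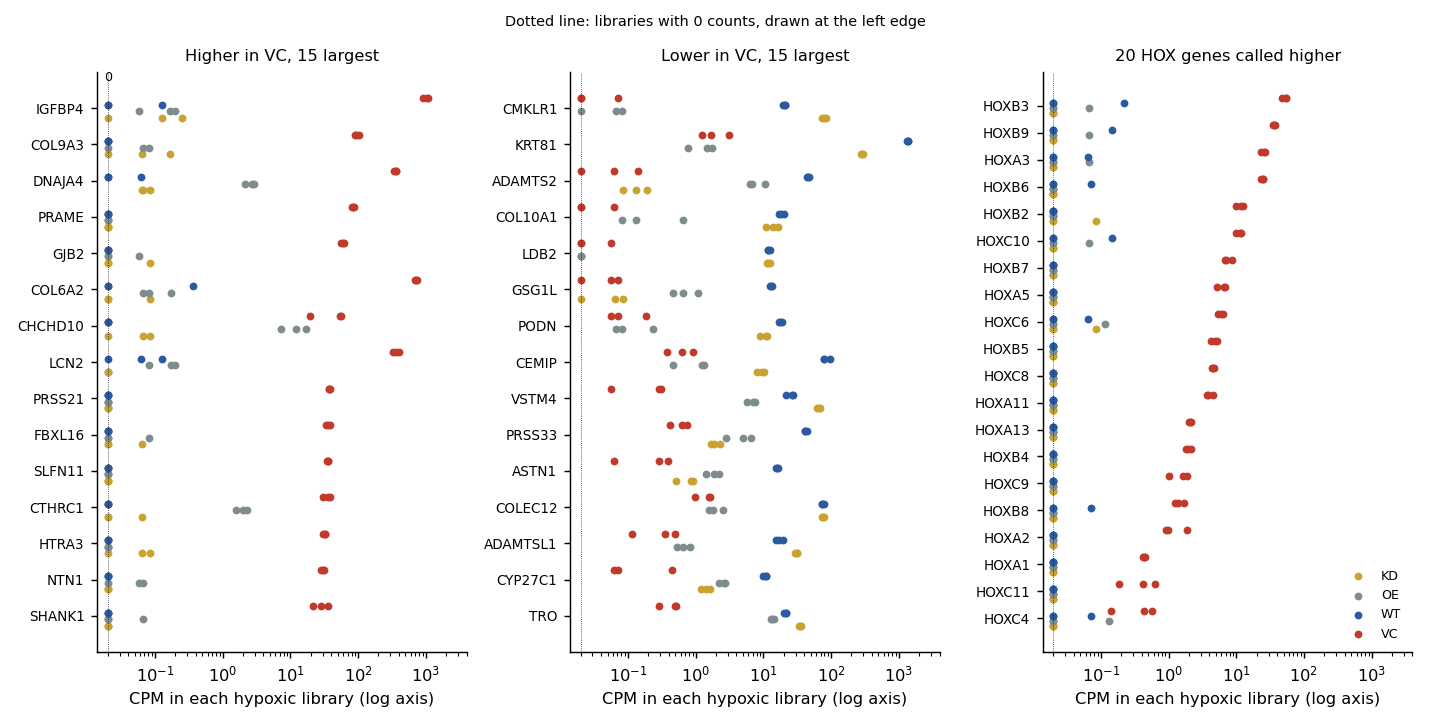
Points are CPM (log axis) in each of the 3 hypoxic libraries of VC, WT, OE and KD, for the 15 largest increases, the 15 largest decreases and the 20 HOX genes called higher in VC, with libraries at 0 counts drawn on the dotted line. VC stands apart from the other 3 lines for nearly all genes of the left and right panels, while in the middle panel OE or KD is often low together with VC.

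Promoter sequence is shown for 2 genes of each direction, to set side by side the start regions of genes that are near silent in one line. The windows run from 250 bases before to 50 bases after the gene start given by RefSeq on GRCh38.p14. They are printed 5′ to 3′ on the strand of the gene. Each CG pair, a C followed by a G where DNA methylation acts, is in capitals. IGFBP4 (30 CG pairs, chr17:40443200-40443499, plus strand) and HOXA3 (15 CG pairs, chr7:27152534-27152833, minus strand) were on in VC and near silent in WT. CMKLR1 (2 CG pairs, chr12:108320593-108320892, minus strand) and ADAMTS2 (47 CG pairs, chr5:179345412-179345711, minus strand) were on in WT and near silent in VC.
IGFBP4: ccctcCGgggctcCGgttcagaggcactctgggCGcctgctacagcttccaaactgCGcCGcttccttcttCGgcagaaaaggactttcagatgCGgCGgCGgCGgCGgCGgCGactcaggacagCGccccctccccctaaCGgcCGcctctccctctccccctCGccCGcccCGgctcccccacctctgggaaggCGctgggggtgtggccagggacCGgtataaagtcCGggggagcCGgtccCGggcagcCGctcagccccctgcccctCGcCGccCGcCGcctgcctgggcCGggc
HOXA3: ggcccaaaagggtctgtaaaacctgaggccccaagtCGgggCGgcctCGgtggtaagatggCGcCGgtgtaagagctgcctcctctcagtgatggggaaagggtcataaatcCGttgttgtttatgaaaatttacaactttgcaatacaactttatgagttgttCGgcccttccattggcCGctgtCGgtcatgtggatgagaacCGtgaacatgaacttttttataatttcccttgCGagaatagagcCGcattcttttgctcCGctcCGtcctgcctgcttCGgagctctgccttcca
CMKLR1: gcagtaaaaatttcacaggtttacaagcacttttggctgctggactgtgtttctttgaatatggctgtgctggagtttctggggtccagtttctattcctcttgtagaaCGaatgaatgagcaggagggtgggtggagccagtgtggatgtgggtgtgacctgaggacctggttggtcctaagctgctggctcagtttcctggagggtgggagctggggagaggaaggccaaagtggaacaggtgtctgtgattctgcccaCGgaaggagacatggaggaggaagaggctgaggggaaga
ADAMTS2: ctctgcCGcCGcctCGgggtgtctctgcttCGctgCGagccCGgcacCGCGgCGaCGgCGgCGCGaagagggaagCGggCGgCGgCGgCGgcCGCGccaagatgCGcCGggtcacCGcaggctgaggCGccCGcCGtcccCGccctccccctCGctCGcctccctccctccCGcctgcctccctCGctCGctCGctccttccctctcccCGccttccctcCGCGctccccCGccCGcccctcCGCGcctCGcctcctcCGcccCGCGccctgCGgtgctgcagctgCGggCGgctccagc
The RefSeq start of CMKLR1 lies inside the span of longer transcripts in GENCODE. The HOXA3 window lies at the upstream end of a long gene span (chr7:27106184-27152583). Counts per gene do not show which start was used, so these windows may not be the start regions of the counted reads. The windows of the 2 higher genes held 30 and 15 CG pairs, and those of the 2 lower genes held 2 and 47. Over the 13078 tested genes with a window, the median was 25 CG pairs, against 26 for genes called higher, 25 for genes called lower and 22 for the 49 of the 80 VC-only genes with a window. The core motif of HIF (ACGTG or GCGTG on either strand) was in 59.9% of all tested windows, 64.2% of the windows of genes called higher and 58.7% of those called lower. With a change of at least 2-fold these shares were 58.8% and 52.7%, both below that of all tested windows. The TEAD motif GGAATG was in 11.4%, 11.3% and 11.4%, and the AP-1 motif TGACTCA in 3.66%, 3.57% and 3.65%, in the same order. A motif match here describes letters and not binding, and methylation was not measured.

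Of the 5 most abundant genes that were called higher by at least 2-fold, TGM2 changed most. TGM2, the tissue transglutaminase that crosslinks extracellular proteins, was at 9378, 9410.5 and 9655 CPM in VC and at 75.1, 71.8 and 78.3 CPM in WT (log2 fold change 6.98, SE 0.11, edgeR adjusted p = 6.90e-28). The replicates of each line lay close together, and OE was at 984 CPM and KD at 16 CPM. FTL, the light chain of the iron store ferritin, was at 4929 ± 272 CPM in VC and 2088 ± 91.5 CPM in WT (log2 fold change 1.24), a value that pseudogenes of FTL could share. C3, the central complement component, was at 2546 ± 143 CPM against 542 ± 77.9 CPM (log2 fold change 2.23).

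FN1, the matrix glycoprotein fibronectin, was at 5417, 8102 and 6508 CPM in VC and at 4258, 2471 and 2641 CPM in WT (log2 fold change 1.10, edgeR adjusted p = 7.14e-05). The lowest VC library lay above the highest WT library, but both groups were spread widely, and with only the 6 libraries fitted the adjusted p was 0.0324. PLEC, the cytoskeletal linker plectin, was at 2245 ± 441 CPM against 899.6 ± 167 CPM (log2 fold change 1.32, adjusted p = 6.02e-05), and without replicate 3 of each group its adjusted p was 0.0144. The 5 most abundant genes called lower by at least 2-fold were VIM, PSAP, MYH9, FLNA and TGFBI. VIM, the intermediate filament vimentin, fell from 15004 ± 224 to 4811 ± 452 CPM (log2 fold change -1.64). MYH9, the heavy chain of non-muscle myosin IIA, fell from 7413 ± 964 to 2671 ± 178 CPM, and FLNA, the actin crosslinker filamin A, from 5831 ± 566 to 2632 ± 121 CPM. PSAP, the precursor of lysosomal saposins, fell from 8976 ± 157 to 4247 ± 171 CPM. TGFBI, a matrix protein induced by TGF-beta, fell from 5399 ± 40.2 to 1884 ± 143 CPM, and was at 9927 CPM in OE.

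HOX genes, the clustered homeobox genes that set position along the body axis and are silent in the forebrain and eye, were on in VC. Of 32 HOX genes listed, 22 were tested, 20 were higher and none was lower. HOXA4 and HOXA7 were the 2 tested genes not called. The summed level of the 22 tested HOX genes was 197 to 208 CPM in the VC libraries and 0 to 0.725 CPM in the WT libraries. Of the 22, 14 had no count in WT. The median log2 fold change was 8.02, or 6.02 with the genes at 0 set to their bound, against 0 over all genes tested. In OE and KD hypoxic libraries none of the 22 was called against the same WT libraries. HOXA3 was at 26.7, 25.5 and 22.9 CPM in VC and at 0, 0.0637 and 0 CPM in WT, a ratio of 1139 (204 to 45039). HOXB6 was at 24.3 ± 1.20 CPM on 1 WT count, a ratio of 1097 (196 to 43354). HOXB2 and HOXB7 had no WT count and were at least 173-fold and at least 114-fold higher. HOXB3 and HOXB9, which were chosen after their values were seen, were the highest of the family, at 52.2 ± 3.62 and 36.2 ± 1.34 CPM in VC. Neighbouring genes of these clusters overlap, and the sources used here do not give the strand setting, so reads of HOX genes and their antisense RNAs cannot be told apart.

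Runs of neighbouring genes changed together, and the HOXB cluster gave the largest median change among them. A run was a stretch of at least 6 neighbouring tested genes called in the same direction. On chromosome 17, 11 neighbours from HOXB2 to HOXB9 (chr17:48540894-48633572, GRCh38) were higher with a median log2 fold change of 9.24. On chromosome 12, 10 neighbours of the HOXC cluster with HOTAIR (chr12:53938831-54056030) were higher with a median of 7.09. A run of 7 genes elsewhere on chromosome 17, with a median of 7.76, held SLFN11, SLFN12 and SLFN13, Schlafen family genes linked to the response to interferon. On chromosome 6, 10 neighbours of the class II region of the major histocompatibility complex (chr6:32439878-32838739), from HLA-DRA to TAP2, were higher with a median of 5.78. Class II genes were low in absolute terms: HLA-DRA was at 3.60 CPM in VC and 0.0211 CPM in WT, and HLA-DPA1 at 12.5 and 0.238 CPM, both chosen after their values were seen. Class II genes are similar in sequence, so reads of 50 bases could be split among them. A run of 9 genes on chromosome 15 (median 5.71) held SPINT1, an inhibitor of serine proteases of epithelia, at 17.7 CPM in VC and no count in WT.

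The retinal pigment epithelium label was checked against 14 markers. In VC 3 markers were higher and 8 were lower than in WT, and their summed level was 1769 to 1929 CPM in VC against 5388 to 5696 CPM in WT. A single gene, EFEMP1, made up most of both sums and of the gap between them. The median log2 fold change of the 14 was -1.03, or -0.92 with the gene at 0 set to its bound. The study used these markers to describe its own lines, so the list is not independent evidence of a direction, and 78.6% called stands beside 65.6% of all genes with at least 10 CPM. RPE65, the isomerase that defines the visual cycle, had no count in VC and 0.0632, 0.0637 and 0.362 CPM in WT, so this defining marker was at or near 0 in both lines. BEST1, a chloride channel of the basal membrane, was at 37.9 ± 5.34 CPM in VC and 28.4 ± 5.01 CPM in WT with overlapping groups, and it lies beside FTH1, whose reads it can share. The eye transcription factors moved in different directions. OTX2 fell from 183 ± 3.33 CPM in WT to 35.4 ± 1.94 CPM in VC (log2 fold change -2.37), MITF from 135 ± 4.45 to 46.9 ± 1.27 CPM (log2 fold change -1.52) and RAX from 18.9 ± 2.43 to 0.482 ± 0.0244 CPM (log2 fold change -5.27). PAX6 was at 116 ± 11.4 CPM in VC and 96.4 ± 3.13 CPM in WT and was not called (edgeR adjusted p = 0.0193).

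Pigment enzymes were lower in VC. TYR, the tyrosinase that starts melanin synthesis, was at 2.92, 2.27 and 2.55 CPM in VC and at 7.46, 10.00 and 8.92 CPM in WT (log2 fold change -1.77, SE 0.16, adjusted p = 1.23e-10). TYRP1, a second enzyme of melanin synthesis, was at 5.47, 4.20 and 4.74 CPM in VC and at 32.9, 35.9 and 37.0 CPM in WT (log2 fold change -2.87), and OE and KD were as low as VC with means of 5.51 and 5.32 CPM. Both genes separated VC from WT in every library. EFEMP1, a fibulin of the matrix under the epithelium, fell from 4494 ± 120.2 to 1011 ± 79.7 CPM (log2 fold change -2.15). LAMP2, a lysosomal membrane protein, fell from 439 ± 27.5 to 307 ± 8.37 CPM. SERPINF1, which encodes the anti-angiogenic factor PEDF, fell from 9.85 ± 0.670 to 6.75 ± 0.484 CPM (edgeR adjusted p = 0.00137), a call lost without VC replicate 2 (adjusted p = 0.0119) and without replicate 2 of both groups (0.0171). On the other side, RLBP1, the retinaldehyde carrier of the visual cycle, rose to 13.4 ± 1.86 CPM from 4.70 ± 0.674 CPM, GULP1, an adaptor of engulfment, to 67.3 ± 10.4 CPM from 8.70 ± 1.52 CPM, and TJP1, the tight junction scaffold ZO-1, to 219 ± 13.0 CPM from 82.5 ± 4.91 CPM. Of 20 tested genes for pigment and the visual cycle, VC had 4 higher and 8 lower, with a median log2 fold change of -0.91. STRA6, the membrane receptor for retinol transport, was among the 4, at 21.3 CPM in VC against 0.894 CPM in WT.

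Markers of other cell types moved in both directions. In bulk RNA, fewer cells of a type and less RNA per cell cannot be told apart. Of 12 tested endothelial markers 5 were higher and 2 lower, with summed levels of 224 to 240 CPM in VC and 78.0 to 83.1 CPM in WT. ENG, the TGF-beta co-receptor endoglin, was at 129, 145 and 134 CPM in VC and at 0.0632, 0.255 and 0.217 CPM in WT (log2 fold change 9.53). It made up most of the VC sum. KDR, the main receptor for VEGFA, went the other way, at 0, 0 and 0.0708 CPM in VC and at 6.82, 4.97 and 5.15 CPM in WT, 271 times the VC level (48.2 to 10750.2). PECAM1, an adhesion protein that defines endothelium, was at 1.33 ± 0.457 CPM in VC.

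Of 5 tested neuroretina markers 3 were higher and 1 lower, with summed levels of 237 to 252 CPM in VC and 226 to 227 CPM in WT. CALB1, the calcium buffer calbindin, was at 45.0 ± 3.41 CPM in VC on 2 WT counts, and LHX1, a homeobox factor of horizontal cells, was at 9.49 ± 1.80 CPM with no WT count (at least 145-fold). Of 8 tested neuronal markers none was higher and 2 were lower, MAP2 and SYT1, although the median log2 fold change of the 8 was 1.49. Of 11 tested basal and mammary epithelial markers 4 were higher and 2 lower, with summed levels of 15.3 to 27.8 CPM in VC and 1328 to 1405 CPM in WT. KRT81 made up nearly all of the WT sum and a small part of the VC sum. EPCAM, an adhesion protein of simple epithelia, was at 2.44 ± 0.418 CPM in VC with no WT count.

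Of 5 tested immune cell markers 2 were higher and 1 lower, with summed levels of 4.66 to 5.81 CPM in VC and 5.81 to 6.81 CPM in WT. Of 7 tested melanocyte and neural crest markers 3 were higher and 1 lower, with 28.5 to 32.9 CPM in VC and 15.4 to 17.8 CPM in WT. Fibroblast and mesenchymal markers, 3 higher and 5 lower of 14, summed to 4704 to 5610 CPM in VC and 15767 to 16162 CPM in WT. VIM made up most of both sums, and the median log2 fold change of the 14 was -0.10. FAP, a surface protease of fibroblasts, fell from 299 ± 13.2 to 59.0 ± 3.96 CPM (log2 fold change -2.34). The part of these markers in the other results was not tested.

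Adhesion, keratin and matrix genes gave a mixed picture with several large members. KRT8 and KRT18, the paired keratins of simple epithelia, were at 1057 ± 47.6 and 959.9 ± 70.5 CPM in VC against 305 ± 2.86 and 226 ± 14.6 CPM in WT (log2 fold changes 1.79 and 2.09). Of 19 keratins tested 4 were higher and 7 lower. CLDN4, a tight junction claudin, was at 131, 129 and 135 CPM in VC and at 1.45, 1.78 and 1.59 CPM in WT (log2 fold change 6.34, SE 0.14). Claudins and tight junction genes were higher for 10 and lower for 5 of 21, close to the shares of well expressed genes, and CLDN4 was their most abundant large change. N-cadherin, encoded by CDH2, fell from 596 ± 35.5 to 154 ± 2.55 CPM (log2 fold change -1.95). The list of cadherins, protocadherins and desmosome genes had 3 higher and 10 lower of 29.

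Regulators of the epithelial to mesenchymal transition did not move together. SNAI2, a repressor of E-cadherin, was at 45.5, 50.7 and 50.0 CPM in VC and at 0, 0 and 0.290 CPM in WT (log2 fold change 8.98). ZEB2, a repressor with related targets, fell from 227 ± 10.3 to 58.4 ± 2.04 CPM (log2 fold change -1.96). PRRX1, a homeobox factor of mesenchyme, fell from 17.6 to 2.22 CPM. Of the 11 tested genes of this list 3 were higher and 5 lower.

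Elastic fibre and matricellular genes, 5 higher and 15 lower of 25 with a median log2 fold change of -1.0, and matrix metalloproteinases with their inhibitors, 2 higher and 11 lower of 19 with a median of -1.06, had mostly lower members. Over genes with at least 10 CPM the share called lower was 30.3% and the median log2 fold change 0.05. TNC, the matricellular protein tenascin C, stood against its list at 150.0 ± 12.3 CPM in VC and 1.47 ± 0.720 CPM in WT (log2 fold change 6.70). MMP9, gelatinase B, fell from 25.2 ± 2.43 to 4.45 ± 0.311 CPM, and MMP1, interstitial collagenase, rose to 12.4 ± 1.94 CPM from 0.840 ± 0.0716 CPM (edgeR adjusted p = 8.74e-05, and 0.0109 without replicate 3 of both groups). Of 30 collagens 10 were higher and 9 lower. COL5A1, a chain of fibrillar collagen V, fell from 1371 ± 87.9 to 242 ± 7.43 CPM (log2 fold change -2.50), and COL11A1 from 1107 ± 47.9 to 274 ± 1.90 CPM (log2 fold change -2.01).

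Integrins and laminins were split, 12 higher and 12 lower of 28. ITGB5, which pairs with the integrin alpha V chain in the uptake of photoreceptor membrane, was at 372, 369 and 408 CPM in VC and at 2864, 2777 and 2939.8 CPM in WT (log2 fold change -2.90, SE 0.10, edgeR adjusted p = 5.22e-20). LAMA1, a laminin chain of basement membranes, rose to 64.9 ± 3.03 CPM from 0.359 ± 0.132 CPM. In the insulin-like growth factor system 6 genes were higher and 5 lower of 16. IGFBP7, a secreted binding protein, fell from 4531 ± 312 to 748 ± 94.0 CPM (log2 fold change -2.60), opposite to IGFBP4.

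Genes of oxygen sensing were compared at a single low oxygen level, so these values are line differences within hypoxia. HIF1A, the alpha subunit of HIF-1, was at 221, 217 and 233 CPM in VC and at 281, 257 and 289 CPM in WT (log2 fold change -0.30, SE 0.08, edgeR adjusted p = 0.00164). The groups did not overlap, but the call was lost without VC replicate 2 (adjusted p = 0.0105), without WT replicate 3 (0.0133) and without replicate 1 of each group (0.0151). EPAS1, the alpha subunit of HIF-2, fell from 699 ± 57.1 to 477 ± 11.9 CPM (log2 fold change -0.55), and ARNT2, a partner of the alpha subunits best known from neurons, from 158 ± 3.55 to 15 ± 0.646 CPM (log2 fold change -3.40). EGLN3, a prolyl hydroxylase that is itself a HIF target, was at 174, 180.5 and 158 CPM in VC and at 2.46, 2.04 and 2.25 CPM in WT (log2 fold change 6.24). EGLN1, the main oxygen sensor of cells, was at 74.7 ± 23 and 64.8 ± 14.7 CPM with overlapping groups. VHL was at 51.3 ± 5.01 CPM in VC and 42.1 ± 3.89 CPM in WT and was not called (adjusted p = 0.0139).

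Of 23 tested HIF target genes outside glycolysis 7 were higher and 13 lower in VC, with a median log2 fold change of -0.55. VEGFA, the vascular growth factor secreted by the pigment epithelium, was at 462, 418 and 459 CPM in VC and at 1201, 1292 and 1232 CPM in WT (log2 fold change -1.48, SE 0.09, edgeR adjusted p = 6.72e-15). Every VC library lay below every WT library by more than the spread of either group. CA9, the surface carbonic anhydrase, fell from 298 ± 4.56 to 156 ± 2.58 CPM, and STC2, a secreted glycoprotein, from 533 ± 4.62 to 127 ± 7.19 CPM. ANGPTL4, a lipase inhibitor that also acts on vessels, went the other way, at 139.9, 132 and 153 CPM in VC and at 0.190, 0.255 and 0.362 CPM in WT (log2 fold change 9.02), with 77.2 CPM in OE and 0.108 CPM in KD. TFRC, the transferrin receptor, was at 144 ± 8.72 and 14.2 ± 1.29 CPM (log2 fold change 3.35). SLC2A1 and SLC2A3, both glucose transporters, moved in opposite directions, from 3511 ± 84.8 CPM in WT to 1891 ± 43.4 CPM in VC and from 101 ± 3.74 to 277 ± 11.5 CPM. Glycolysis genes were higher for 8 and lower for 4 of 22.

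Angiogenic factors and receptors were higher for 8 and lower for 9 of 21. PGF, a ligand related to VEGFA, rose to 30.0 ± 1.34 CPM from 1.21 ± 0.276 CPM (log2 fold change 4.64). PDGFA, a growth factor for mesenchymal cells, rose to 131 ± 7.29 CPM from 19 ± 0.859 CPM (log2 fold change 2.79). ANGPT2, a ligand of the receptor TEK, was at 2.96 ± 0.139 CPM in VC with no WT count (at least 44.6-fold).

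Most called genes of the interferon response were higher. Of 26 interferon-stimulated genes 15 were higher and 4 lower, with a median log2 fold change of 0.96 against 0.05 over genes with at least 10 CPM. MX2, a dynamin-like restriction factor for retroviruses, was at 72.8, 75.4 and 74.4 CPM in VC and at 0.0632, 0 and 0 CPM in WT, a ratio of 3365 (604 to 132947). BST2, which tethers budding viruses, was at 106, 100.5 and 104 CPM in VC and at 0.948, 1.46 and 0.942 CPM in WT (log2 fold change 6.51). The 4 lower members were IFIT1, IFIT2, IFIT3 and STAT2, and IFIT3, which binds viral RNA in a complex, fell from 63.4 ± 2.82 to 19.3 ± 0.619 CPM. CGAS, the cytosolic DNA sensor, was at 14.1, 16.9 and 18.1 CPM in VC on 1 WT count, a ratio of 738 (132 to 29202). Nucleic acid sensors and retroviral restriction factors as a list were split, 8 higher and 7 lower of 21. Both MX2 and CGAS were under 1 CPM in OE, at 0.0470 and 0.196 CPM, and any effect of a retrovirus on these genes was not tested.

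Chemokines and inflammatory mediators were higher for 13 and lower for 5 of 27 in hypoxia, and higher for 7 and lower for 10 in normoxia. A more positive VC minus WT difference in hypoxia was called for 9 of the 27, beside 4.49% of all genes of any level. No member had a more negative one. The 9 were 6 without replicate 2 of every group. PTGS2, the inducible cyclooxygenase, was at 83.6, 95.5 and 92.3 CPM in VC on 1 WT count, a ratio of 4104 (736 to 162150.0), and IL1A, an interleukin released by damaged epithelia, was at 14.9 ± 1.97 CPM, a ratio of 679.6 (122 to 26881). CXCL2, a neutrophil attractant, was at 1.34 ± 0.0859 CPM with no WT count (at least 20.2-fold). Class I antigen presentation was lower for 8 and higher for 4 of 16, and with a change of at least 2-fold for 1 and 2. B2M, the light chain of class I molecules, rose to 1121 ± 41.0 CPM from 575 ± 34.5 CPM. Complement genes were split, 6 higher and 6 lower of 18. CFB, a factor of the alternative pathway, rose to 94.1 ± 9.21 CPM from 0.900 ± 0.158 CPM (log2 fold change 6.69).

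Among the other lists, p53 targets were lower for 14 and higher for 2 of 19 with a median log2 fold change of -0.82, imprinted genes were higher for 8 and lower for 4 of 13 with a median of 1.28, and iron genes were higher for 8 and lower for 3 of 16 with a median of 0.86. HMOX1, the heme oxygenase that frees iron from heme, rose to 1989 ± 37.8 CPM from 147 ± 11.8 CPM (log2 fold change 3.76). TGF-beta and BMP pathway genes were higher for 12 and lower for 9 of 31, and WNT pathway genes for 10 and 14 of 32. Guidance genes were higher for 12 and lower for 16 of 35, and YAP and TEAD target genes for 6 and 10 of 22. Sterol and fatty acid synthesis genes were higher for 8 and lower for 10 of 29, and in normoxia for 3 and 18. Cell cycle and replication genes were lower for 12 and higher for 5 of 30, and with a change of at least 2-fold for 2 and 2. In normoxia 6 of these 30 genes were lower and 12 higher. Unfolded protein response genes were higher for 7 and lower for 6 of 20, and immediate early genes for 5 and 5 of 22. Eye field and pigment epithelium transcription factors had 2 higher and 4 lower of 10.

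Of 13 mitochondrially encoded genes, MT-CO2, a subunit of cytochrome oxidase, was the 1 called, at 1465, 893 and 1082 CPM in VC and at 399.7, 723 and 576 CPM in WT (edgeR adjusted p = 0.00513). The groups did not overlap but were spread widely, and the call was lost without VC replicate 1 (adjusted p = 0.0360), VC replicate 3 (0.0106), WT replicate 1 (0.0320) or WT replicate 3 (0.0160), and with only the 6 libraries fitted (0.0563). MT-RNR1, a mitochondrial ribosomal RNA, was at 602 ± 83.5 and 538 ± 46.8 CPM and was not called (adjusted p = 0.339). VCP, a segregase for ubiquitinated proteins, was at 756 ± 33.6 CPM in VC and 384 ± 22.4 CPM in WT (log2 fold change 0.98, adjusted p = 2.77e-12).

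**Figure D3:**
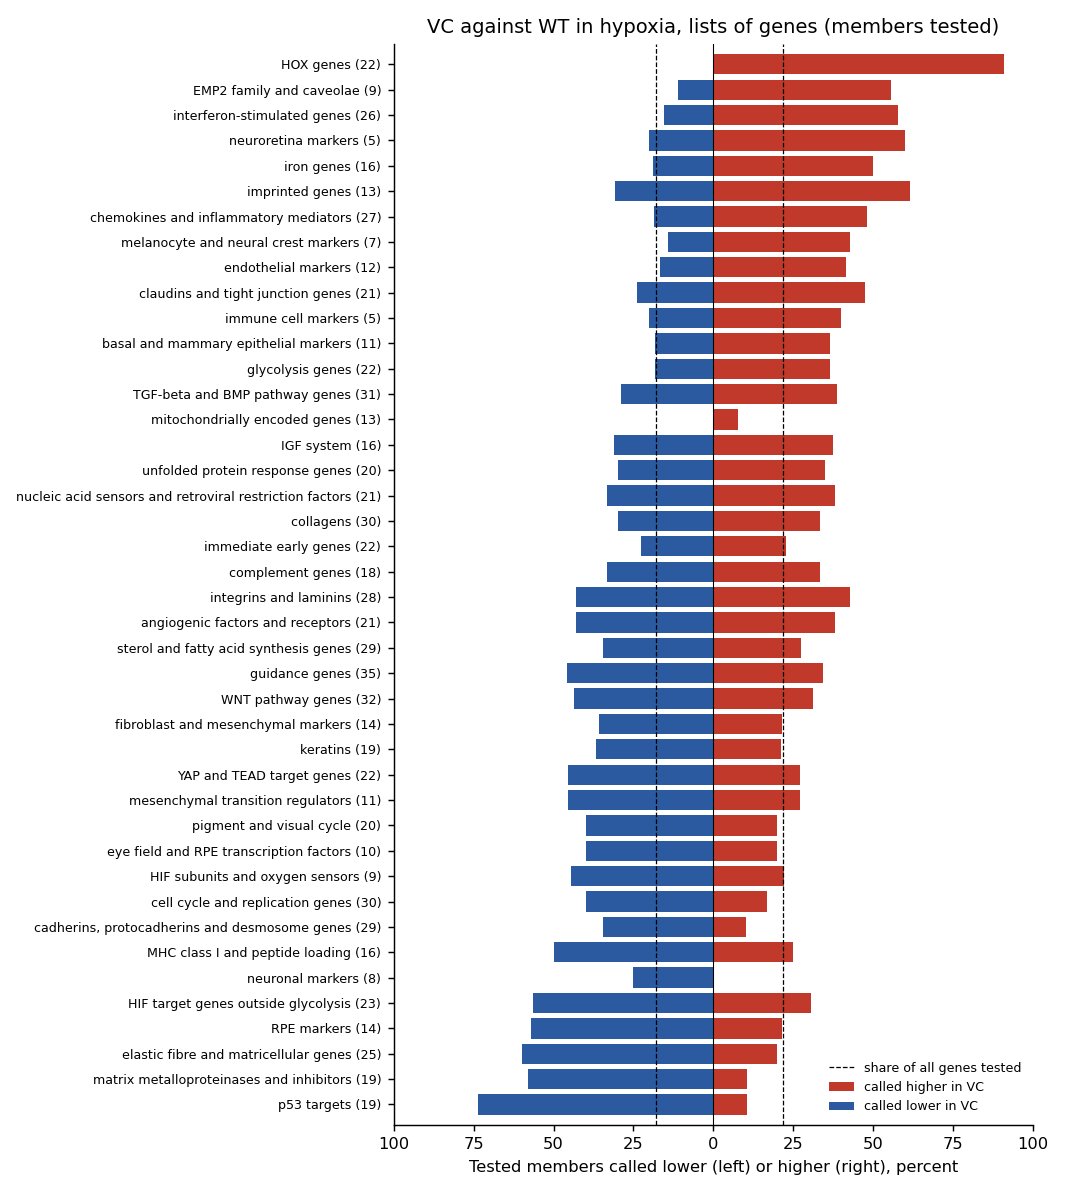
Bars give the percent of tested members of each list that were called lower (left) or higher (right) in VC, with the number tested in brackets, and the dashed lines mark the shares over all genes tested (18% lower, 21.9% higher). Among genes with a mean of at least 10 CPM these shares were 30.3% lower and 35.3% higher, which are not drawn. HOX genes are at the top with 20 of 22 higher, and p53 targets and matrix metalloproteinases are among the lists at the bottom. The HOX genes passed the count filter largely through the VC libraries.

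The same lines were also sequenced in normoxia, in libraries that the hypoxic comparison did not use. There 8899 of 24873 genes (35.8%) were called, 4915 (19.8%) higher and 3984 (16%) lower in VC. Of the 9920 genes called in hypoxia, 7233 (72.9%) were called in the same direction in normoxia and 105 in the opposite direction. Across all 24873 genes the log2 fold changes of the 2 oxygen levels correlated at r = 0.79, given as a description since genes are not independent. Of the 22 HOX genes tested, 20 were higher and none was lower in normoxia too, and the count filter favoured such genes here as well. TGM2 was at 7914 CPM in VC and 87.1 CPM in WT in normoxia, and KRT81 at 2.93 and 1799 CPM. IGFBP4 was at 829.9 CPM in normoxic VC and 0.0661 CPM in normoxic WT.

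A smaller set of genes had a line difference that changed with oxygen. The test of the VC minus WT difference in hypoxia against that in normoxia called 1996 genes (8.02%), 1117 (4.49%) with a more positive and 879 (3.53%) with a more negative difference in hypoxia. These counts fell to 268 and 224 without replicate 2 of every group, and to 613 and 449 without replicate 3. In the fit of all replicates the difference was wider in hypoxia for 1094 of the 1996 genes, narrower for 331 and of opposite sign for 571. HMOX1 was at 1956, 2030.1 and 1979.6 CPM in hypoxic VC and at 150.0, 134 and 157 CPM in hypoxic WT, while the normoxic means were 163 and 117 CPM. The lines were close in normoxia and far apart in hypoxia, and the log2 difference grew by 3.29 (SE 0.17, edgeR adjusted p = 2.73e-12). CEBPG, a partner of stress-induced leucine zipper factors, was at 55.7 and 10.5 CPM in hypoxia and at 42.3 and 33.1 CPM in normoxia, for VC and WT in turn, a growth of 2.06. GRB10, an adaptor that dampens insulin signalling, was higher in VC in hypoxia (182 against 75.2 CPM) and lower in normoxia (76.3 against 108 CPM).

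In other genes the difference was more negative in hypoxia. F2RL1, a receptor cleaved by proteases, was at 20.4 CPM in VC and 81.1 CPM in WT in hypoxia, and at 21.4 and 17.6 CPM in normoxia (change of difference -2.27, SE 0.11, edgeR adjusted p = 4.74e-14). AVPI1 was at 11.3 and 58.0 CPM in hypoxia and at 20.1 and 20.6 CPM in normoxia. ANKRD1, a target of YAP, was lower in VC in hypoxia (20 against 47.6 CPM) and higher in normoxia (126 against 65.6 CPM). CHAC1, which degrades glutathione, changed sign the other way, with a more positive difference in hypoxia (change 5.66). It was at 3.18 CPM in VC and 0.241 CPM in WT in hypoxia, and at 0.819 and 3.29 CPM in normoxia. HIST1H2BD and SLC2A3 were higher in VC at both oxygen levels, with changes of the difference of -2.85 and -1.57. Of 22 glycolysis genes 8 were higher and 4 lower in hypoxia, and 17 higher and 2 lower in normoxia. A more negative difference in hypoxia was called for 11 of the 22, beside 3.53% of all genes of any level. The share among well expressed genes was not taken for this contrast, and it may be higher, as it was for the line difference. DESeq2 called 12 of the 22 more negative and 1 more positive. The 11 were 6 without replicate 2 of every group and 7 without replicate 3. VEGFA differed by -1.48 in hypoxia and -1.28 in normoxia, and that change was not called (edgeR adjusted p = 0.381).

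**Figure D4:**
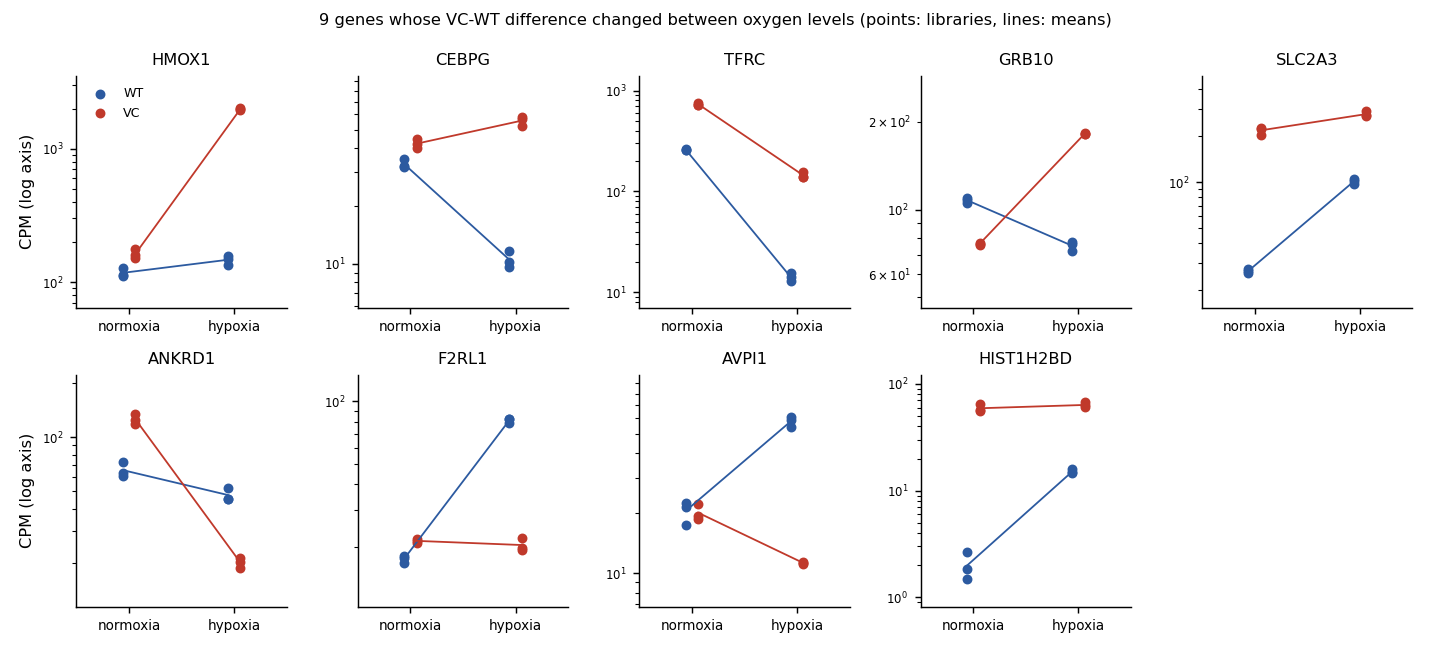
Points are CPM (log axes) in each VC and WT library in normoxia and hypoxia, with lines through the means, for 9 of the 10 genes with the smallest p for a change of the VC minus WT difference. HMOX1 rises from 163 to 1989 CPM in VC and stays between 117 and 147 CPM in WT, and F2RL1 rises in WT from 17.6 to 81.1 CPM and stays near 20.4 CPM in VC.

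The line difference was uneven along the genome. Among genes with a mean of at least 10 CPM, the median log2 fold change in hypoxia was -0.42 on chromosome 18, -0.25 on chromosome X and -0.24 on chromosome 4, and 0.32 on chromosome 20, 0.31 on chromosome 15 and 0.29 on chromosome 14. On chromosome 20, 31.5% of tested genes were higher and 14.5% lower, and on chromosome 18 the shares were 14.9% and 26.7%. The normoxic libraries gave medians of -0.42 on chromosome 18 and 0.30 on chromosome 20. For OE against the same hypoxic WT libraries the medians of chromosomes 1 to 22 and X lay between -0.14 and 0.21, and for KD between -0.00 and 0.09. Copy number was not measured, and its part in these medians was not tested.

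**Figure D5:**
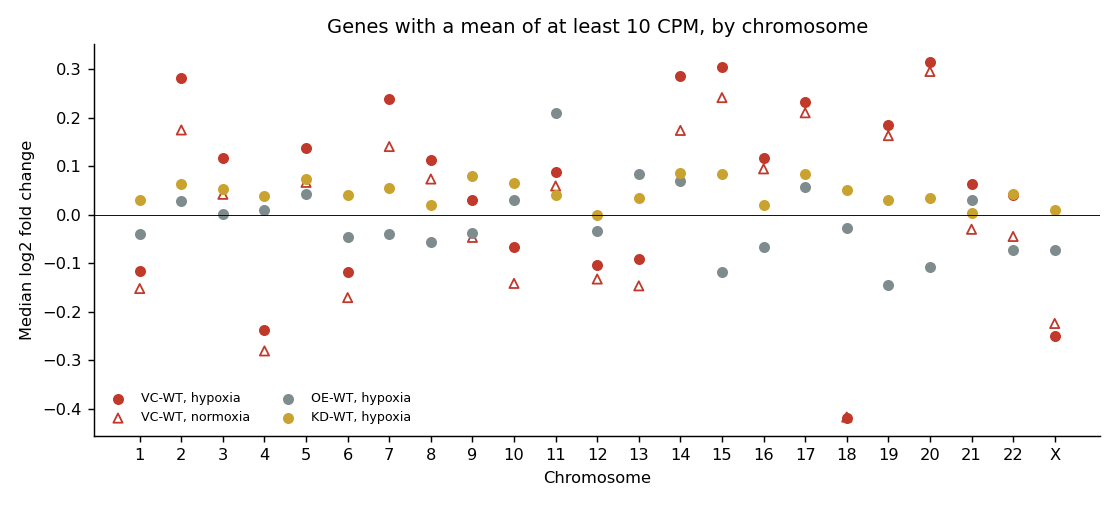
Points are the median log2 fold change per chromosome over genes with a mean of at least 10 CPM, for VC against WT in hypoxia (filled) and normoxia (open) and for OE and KD against WT in hypoxia. Chromosome 18 is lowest for VC at -0.42 at both oxygen levels, and chromosomes 20 and 15 are highest in hypoxia at 0.32 and 0.31.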

How the data were processed

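Total RNA of 24 samples labelled ARPE-19 was depleted of ribosomal RNA and sequenced as single reads of 50 bases on a HiSeq3000. The reads were split by sample with bcl2fastq 2.17, and the authors aligned them with STAR to GRCh38 and deposited whole-number counts per Ensembl gene, which are not normalized. The aligner settings and the strand setting of the counting are not given in the sources used here. The deposited table of normalized values and the alignment report were not used.

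Counts as deposited were fitted with edgeR 4.0.16 (R 4.3.3, limma 3.58.1) as 8 groups of 3 libraries, after keeping genes with at least 10 counts in total, with TMM scaling, robust quasi-likelihood dispersions and Benjamini-Hochberg adjustment. The contrasts were VC minus WT in hypoxia, the same in normoxia, and the difference between both, with OE and KD against WT for values side by side. The threshold of 0.01 and the filter of 10 counts follow the study, which used DESeq2. DESeq2 1.42.0 was an alternative here. The test was checked on simulated counts before use. Far fewer genes were changed there than were called here, and by smaller folds than the largest seen here. The check therefore does not cover the scaling of libraries where many genes differ. Total counts of 14371623 to 18032112 put 3 counts in a compared library at 0.170 to 0.217 CPM, which limits what can be said of rarer transcripts. Counts of replicates differed by more than sampling noise in every pair of the 6 libraries (chi-square per degree of freedom 4.15 to 10.7), so none was merged, which does not show that they were separate cultures.

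Named genes were EMP2, EMP1, EMP3 and PMP22, the 15 largest called changes in each direction among genes whose groups did not overlap and whose higher group had at least 10 CPM, the 5 most abundant called genes changed at least 2-fold in each direction, from each list the called genes of largest change (4 at most) and those against its majority, called genes at 0 in one group, the 10 called genes with the smallest p for a change of the difference with oxygen, genes the study discussed (HIF1A, VEGFA, VHL, VCP, MT-RNR1) and members of counts of 5 or fewer. The text gives a choice of these, and a few named by the rule are not reported here. The members and the 42 lists were chosen with earlier results of these data known. Lists are described by counts and medians, with no test. Gene positions are those of GENCODE on GRCh38, matched by Ensembl identifier for 24759 of the tested genes, and promoter windows are from RefSeq (GRCh38.p14), matched for 13078.

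Alternatives were other scaling, filters and thresholds, fits of fewer libraries, a block on the replicate number and each library or replicate number left out. Deviations from the group means of same-numbered hypoxic VC and WT libraries correlated at -0.25, -0.28 and 0.42 over 9599 genes. Those of VC 1 with WT 2 correlated at 0.54 and those of VC 2 with WT 1 at 0.40. In normoxia these crossed values were 0.46 and 0.20. The column labels also name sets, with the same numbers as the replicates. Whether VC and WT libraries were handled in pairs is not given. A block on the replicate number does not take up links between differently numbered libraries.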

Additional observations from a re-analysis of the deposited data

Results flagged for a closer look

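For 30 of the genes named above, the VC minus WT difference in hypoxia differed from that in normoxia by a test of the difference itself (edgeR, adjusted p under 0.01). Values are the log2 difference in hypoxia minus that in normoxia.

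A more positive difference in hypoxia was found for CHAC1 (5.66, SE 0.58), HMOX1 (3.29), CEBPG (2.06), TFRC (1.86), GRB10 (1.77), CLDN4 (1.74) and TNC (1.73). Smaller positive values were found for TJP1 (0.84), TAP2 (0.67), EPAS1 (0.59), TGM2 (0.47) and EFEMP1 (0.35). TFRC was at 144 CPM in VC and 14.2 CPM in WT in hypoxia, and at 734 and 261 CPM in normoxia.

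A more negative difference in hypoxia was found for HIST1H2BD (-2.85), ADAMTS2 (-2.80, SE 0.62), AVPI1 (-2.34), F2RL1 (-2.27), ANKRD1 (-2.20), SYT1 (-2.18) and ADAMTSL1 (-2.11). RAX (-1.78), SLC2A3 (-1.57), PRSS33 (-1.53), PDGFA (-1.20) and MAP2 (-1.04) followed. Values under 1 in size were those of STAT2 (-0.95), IFIT1 (-0.87), ARNT2 (-0.75), SLC2A1 (-0.62), ZEB2 (-0.55) and OTX2 (-0.53). SYT1, a calcium sensor of synaptic vesicles, was at 1.57 CPM in VC and 8.15 CPM in WT in hypoxia, and at 6.18 and 7.06 CPM in normoxia.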

How the results depend on the processing

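The counts of genes higher and lower in VC in hypoxia (5447 and 4473) lay between 5196 and 5926 and between 4348 and 5140 with other scaling, filters, sets of libraries or DESeq2 at the same threshold. They were 2979 and 2225 when a change of at least 2-fold was also asked for. Leaving out 1 library gave 4898 to 5115 and 4117 to 4188, and leaving out a replicate number 3988 to 5117 and 3512 to 4411. The counts of genes whose difference changed with oxygen (1117 and 879) were 268 to 1163 and 224 to 825 without a replicate number, lowest without replicate 2, and 1499 and 1159 with DESeq2. The cause was not tested. Without replicate 2, calls of a change with oxygen were lost for ADAMTS2, EFEMP1, EPAS1, OTX2, PRSS33, RAX, TAP2, TGM2 and TNC among others.

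Scaling by relative log expression moved the median of all genes by 0.03 (log2). No gene named in the text changed direction under the alternatives run. Lists with nearly equal counts in both directions (such as collagens, complement, integrins and immediate early genes) changed or lost their majority under some alternatives. Among less even lists, a change of at least 2-fold left class I presentation with 2 higher and 1 lower, cell cycle genes with 2 and 2, sterol genes with 1 and 0, HIF subunits and sensors with 1 and 1, and angiogenic factors with 6 and 5. HIF subunits and sensors also had 3 and 3 without WT replicate 3, and TGF-beta and BMP genes 12 and 12 with no filter on low counts. A block on the replicate number gave 5476 and 4541 genes in all 24 libraries, 5591 and 5086 in the 6 libraries, and 1219 and 940 for the change with oxygen. In the 6 libraries the block raised the adjusted p of FN1 to 0.135, PLEC to 0.0673 and MT-CO2 to 0.204. PRSS33 lost its change with oxygen under the block (adjusted p = 0.0127). The depth limits statements on transcripts under 0.217 CPM in a single library.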

Other observations

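The genes present in VC libraries alone, at least 10 CPM in all 6 and under 1 CPM in the 18 others, lay on many chromosomes. Of the 80, 8 were on chromosome 17 and 6 on chromosome 19, which held 1453 and 1611 of the 24873 genes tested. HOXB3, HOXB6 and HOXB9 of the HOXB cluster were among those on chromosome 17. Beside IGFBP4, COL6A2 and LCN2 the 80 genes held transcription factors of limb, heart and gut (PITX1, GATA4) and receptors and ligands (NOTCH3, FGFR4, KITLG, EREG). They also held epithelial surface genes (SPINT1, WFDC2), and all of these were chosen after their values were seen.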
